A study of Mus musculus with 12 samples.

Results

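The alcohol dehydrogenase (Adh) and aldehyde dehydrogenase (Aldh) families were followed in mouse liver through 10 genes, out of 30142 with a named probe set: Adh4, Adh1, Adh5, Adh7, Aldh2, Aldh1a1, Aldh1a7, Aldh1b1, Aldh3a2 and Aldh8a1. They were found by symbol in the platform annotation, each had 1 probe set, and all 10 lay above the filter on low values that left 18725 genes for testing. The genes were chosen by symbol with earlier results of these data known, and Adh4 was selected on its higher log2 values in descendants than in controls. That difference is described here, and the fit that includes Adh4 is no test of it. The samples were livers of C57BL/6 males aged 12 weeks in 3 groups of 4 arrays. Controls had lean parents. The MatOb F2 group were grandsons and the MatOb F3 group great-grandsons of obese females carrying Avy/a, the viable yellow agouti allele, per the series' design, while the sample labels call both groups sons of an obese mother. The labels do not give the generation of the control males, whether the descendants themselves carried the allele, or whether each array was a separate animal, so the spread within a group may be partly technical. All values are log2 expression values as deposited, and a difference of 1 is a doubling. A level of 1 gene is not set against that of another, because probe sets differ in brightness.

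Alcohol dehydrogenases oxidise alcohols to aldehydes in the cytosol with NAD as the acceptor, and aldehyde dehydrogenases carry the aldehydes on to acids. In liver the pair of steps clears ethanol through acetaldehyde to acetate, and related enzymes turn retinol into retinal and then retinoic acid, remove formaldehyde, and oxidise the long-chain aldehydes released from lipids. The Adh genes of the mouse stand next to each other in one cluster, in the order Adh7, Adh1, Adh6a, Adh6b, Adh4 and Adh5, while the Aldh genes are scattered. An exception is Aldh1a1 and Aldh1a7, which are close relatives and neighbours. Bulk tissue was measured, so fewer cells of a type and less RNA per cell cannot be told apart.

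Arrays that stand apart bear on several members. The arrays split at the widest gap in the mean level of 337 small nucleolar RNA genes into a higher set of 7 and a lower set of 5, which no label accounts for. Control replicate 2 was the highest of the 12 arrays for 14.5% of the genes tested, and MatOb F2 replicate 2 the lowest for 8.79%. The share of MatOb F2 replicate 2 is close to an equal one over the 12 arrays. The liver label was borne out by hepatocyte markers: 9 of 10 were measured, all 9 lay above the filter, and their mean level was between 12.2 and 12.3 on every array. Across 11 lists of cell type and zonation markers, the ranges of the 3 groups shared a common interval in 11.

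Upstream sequences are shown for 3 members. Adh4 was taken because its groups separated, and Aldh1a1 with Aldh1a7 as close relatives whose values moved together across arrays (Pearson r = 0.89). Aldh1a1 and Aldh3a2 moved together as closely (r = 0.90), and the Aldh3a2 window is not shown. The part of these sequences in the values was not tested. RefSeq's promoter table (GRCm38.p6) held 11 start sites for 9 of the 10 members, and the 250 bases before the start are used here, 5′ to 3′ on the strand of the gene. The Adh4 window is chr3:138415247-138415496 on the plus strand, with capitals on each AGGTCA. The Aldh1a1 window is chr19:20601718-20601967 on the plus strand and the Aldh1a7 window chr19:20727557-20727806 on the minus strand, with capitals on the longest run of bases that both hold.
Adh4: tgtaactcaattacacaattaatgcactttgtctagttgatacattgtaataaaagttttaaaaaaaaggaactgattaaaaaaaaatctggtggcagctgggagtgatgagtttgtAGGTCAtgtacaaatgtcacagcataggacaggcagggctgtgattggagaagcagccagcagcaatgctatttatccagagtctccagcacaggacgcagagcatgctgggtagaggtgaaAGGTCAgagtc
Aldh1a1: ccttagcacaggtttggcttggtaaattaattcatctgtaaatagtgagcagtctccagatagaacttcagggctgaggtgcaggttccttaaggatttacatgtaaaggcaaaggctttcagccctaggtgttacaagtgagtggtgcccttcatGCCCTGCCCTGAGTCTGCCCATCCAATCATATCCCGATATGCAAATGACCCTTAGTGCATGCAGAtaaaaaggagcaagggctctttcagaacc
Aldh1a7: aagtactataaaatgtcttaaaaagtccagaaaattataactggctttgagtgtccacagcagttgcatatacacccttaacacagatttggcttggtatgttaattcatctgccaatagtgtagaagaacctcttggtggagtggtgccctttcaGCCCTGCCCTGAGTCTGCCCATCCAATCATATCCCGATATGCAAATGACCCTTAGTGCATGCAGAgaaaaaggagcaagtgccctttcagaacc

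The Aldh1a1 and Aldh1a7 windows share 65 identical bases, at −94 to −30 from the start in both, and 94 of the last 100 bases are the same without gaps. The other annotated Aldh1a1 start shares no run over 8 bases with Aldh1a7. Searches were made for 4 motifs, chosen after these sequences were seen, on both strands. The octamer ATGCAAAT, a site for POU-domain factors, lies inside the shared run at −56 to −49 and also occurs in the Aldh8a1 window, against 1.60% of 32817 mouse windows of this length. AGGTCA, the half-site of nuclear receptors, occurs at −133 to −128 and at −11 to −6 in the Adh4 window and in no other member's, against 14.0% of all windows. CCAAT, which lies inside the shared run too, occurs for 5 members (Adh4, Adh7, Aldh1a1, Aldh1a7 and Aldh3a2) and in 33.8% of all windows. TATAAA occurs for 3 (Adh5, Adh7 and Aldh1a7) and in 12.4% of all windows. A match is a string of letters and not a measured site. Whether the probe sets of these close relatives share probes was not tested, so their values are uncertain as separate measurements.

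Adh4 encodes an alcohol dehydrogenase that works on ethanol at high concentrations and on retinol. Its controls lay close together, at 9.34, 9.35, 9.42 and 9.32 in replicates 1 to 4. The F2 arrays read 9.52, 9.62, 9.62 and 9.71, and the F3 arrays 9.74, 9.65, 9.45 and 9.93. All 8 descendant arrays were above all 4 controls, although the lowest descendant, F3 replicate 3, was only 0.027 above the highest control.

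Control livers averaged 9.36 ± 0.04 (SD, n = 4) and F2 livers 9.62 ± 0.08 (SD, n = 4), which is 0.26 (SE 0.088) higher on the log2 scale, or 1.20-fold. The F3 mean was 9.69 ± 0.20 (SD, n = 4), a difference of 0.34 (SE 0.088) or 1.26-fold. Both comparisons share the control arrays. F2 lay wholly above control for 0.304% of the genes tested, F3 for 0.726%, and all 8 descendants did for 12 genes (0.0641%), with 0.0481% wholly lower. Among those 12 genes Adh4 had the second largest difference. Since Adh4 was singled out for this pattern, these shares place it among genes and are no test of it.

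Among descendants, F3 replicate 4 had the highest Adh4 value, and without it the F3 difference was 0.26. Leaving out any 1 array kept the F2 difference between 0.23 and 0.29 and the F3 difference between 0.26 and 0.42. In the higher small RNA set alone the differences were 0.28 in F2 and 0.28 in F3. In the lower set they were 0.24 in F2 and 0.55 in F3, where F3 is the single array, replicate 4. F3 minus F2 was 0.08 (95% interval −0.11 to 0.27), and −0.0014 without F3 replicate 4. Mean levels of pericentral hepatocyte markers, 8 of 10 measured, ran from 8.84 to 9.10 in controls, 8.73 to 8.98 in F2 and 8.76 to 8.95 in F3. Kupffer cell markers, 10 of 10, ran from 7.58 to 7.89, 7.47 to 8.25 and 7.33 to 7.93 in the same order. The groups overlap in both lists. The pericentral list had a median of −0.15 in F3 against control, with 7 of 8 markers below 0, and −0.12 in F2, with 6 of 8 below 0, and the part of such markers in the Adh4 values was not tested.

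**Figure D1:**
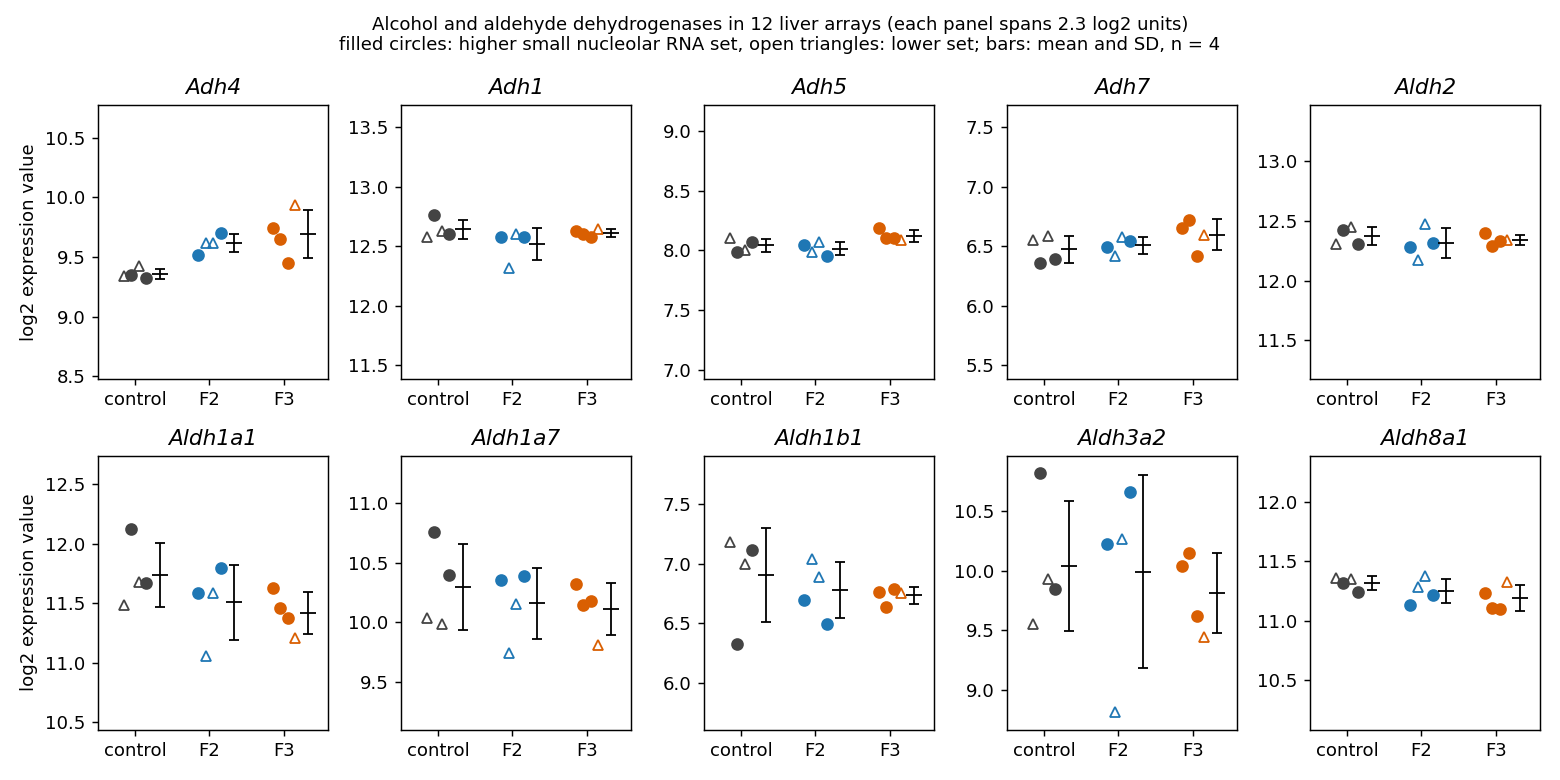
Log2 expression values (vertical axis) of the 10 genes in control, F2 and F3 livers, with 1 point per array, filled circles for the 7 arrays of the higher small nucleolar RNA set and open triangles for the 5 of the lower set, and bars for the mean and SD of 4 arrays. All 8 descendant values of Adh4 lie above the 4 controls, while Aldh3a2 spans 8.82 to 10.82 with full overlap of the groups.

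The other members in the Adh cluster, Adh1, Adh5 and Adh7, did not separate from control. Adh6a and Adh6b were not among the members. Adh1, the main ethanol-oxidising enzyme of the liver, read 12.57, 12.76, 12.63 and 12.60 in controls, 12.58, 12.32, 12.60 and 12.58 in F2, and 12.63, 12.60, 12.57 and 12.64 in F3. Apart from control replicate 2 at the top and F2 replicate 2 at the bottom, the remaining 10 arrays lay within a narrow band. The F2 difference of −0.12 (95% interval −0.28 to 0.03) came to −0.056 without F2 replicate 2, and that of F3 was −0.03 (95% interval −0.18 to 0.13).

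Adh5 encodes the glutathione-dependent formaldehyde dehydrogenase, which also reduces S-nitrosoglutathione. It was the least variable member, with an SD of 0.066 over the 12 arrays, lower than that of all but 6.42% of the genes tested. Controls read 8.10, 7.99, 8.003 and 8.07, F2 arrays 8.05, 7.99, 8.07 and 7.96, and F3 arrays 8.19, 8.10, 8.10 and 8.09. All 4 F3 arrays were above all 4 F2 arrays, by 0.11 on average (95% interval −0.01 to 0.22), where 1.62% of the genes tested were wholly higher in F3. Limma did not call this difference (adjusted p = 0.9999), and F3 overlapped the controls.

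Adh7, best known from the stomach and other epithelia, where it oxidises retinol and ethanol, was measured near background. Its lowest value was above 89.7% of the 5222 negative control probe sets. Controls read 6.55, 6.36, 6.59 and 6.40, F2 arrays 6.50, 6.41, 6.58 and 6.55, and F3 arrays 6.65, 6.72, 6.42 and 6.60. In F3, 3 arrays exceeded every control and the other did not. The F3 difference was 0.12 (95% interval −0.05 to 0.29), with 0.22 in the higher set and 0.02 in the lower set. In the lower set F3 is the single array replicate 4.

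Aldh2, the mitochondrial enzyme that clears acetaldehyde, was steady. Controls read 12.31, 12.43, 12.45 and 12.30, F2 arrays 12.28, 12.18, 12.48 and 12.32, and F3 arrays 12.40, 12.29, 12.34 and 12.34. The differences were −0.06 (95% interval −0.21 to 0.09) in F2 and −0.03 (95% interval −0.18 to 0.12) in F3. Aldh8a1, which acts on the semialdehyde of the tryptophan breakdown pathway and on retinal, read 11.36, 11.31, 11.35 and 11.24 in controls, 11.13, 11.29, 11.37 and 11.21 in F2, and 11.23, 11.11, 11.10 and 11.33 in F3. In F3, 3 arrays were below every control, at a difference of −0.13 (95% interval −0.28 to 0.03). That difference was −0.13 in the higher set of arrays and −0.03 in the lower, where F3 is the single array replicate 4.

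**Figure D2:**
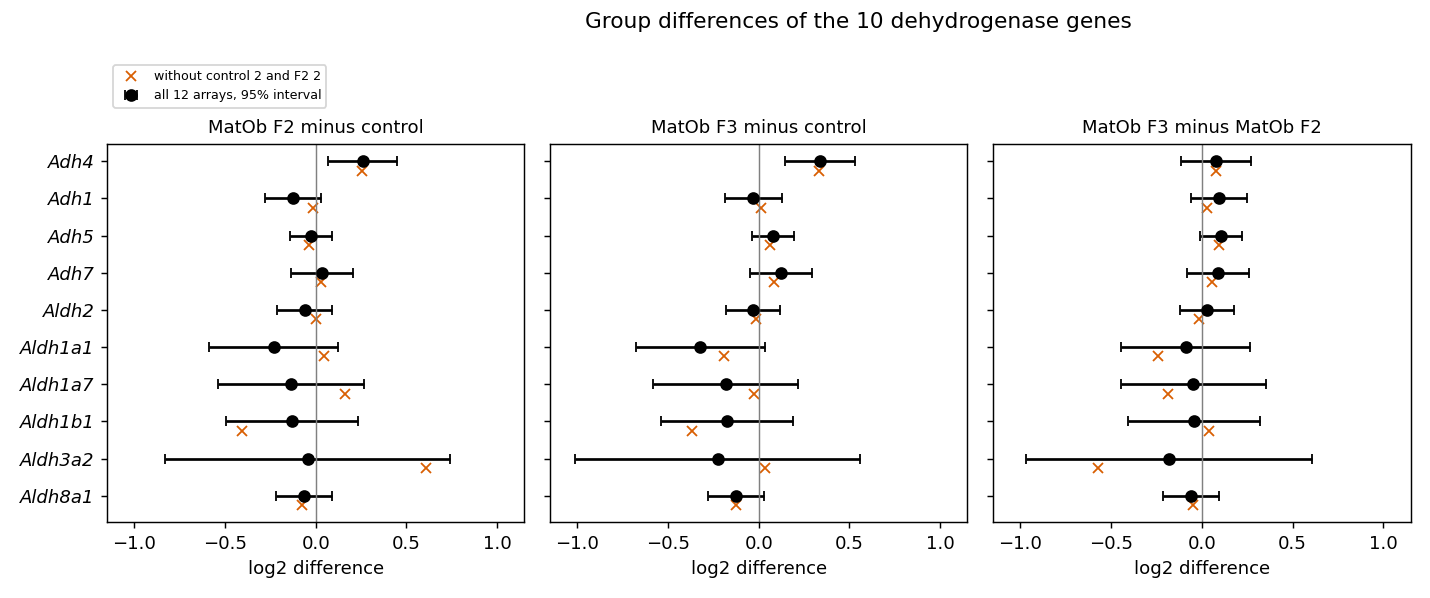
Log2 differences between groups (horizontal axis) for the 10 genes in 3 comparisons, with points and 95% intervals from the fit of all 12 arrays and crosses for values that leave out control 2 and F2 2. Adh4 has values of 0.26 in F2 and 0.34 in F3 against control. It was selected on its higher values in descendants, so its intervals are no test of them. The Aldh3a2 estimate in F2 goes from −0.04 to 0.61 without control 2 and F2 2.

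The remaining 4 members varied most between arrays of a group. Aldh3a2 encodes the fatty aldehyde dehydrogenase of the endoplasmic reticulum and peroxisomes and is a known target of PPAR-alpha, the nuclear receptor for fatty acids. Controls read 9.55, 10.82, 9.93 and 9.85, F2 arrays 10.23, 8.82, 10.27 and 10.66, and F3 arrays 10.04, 10.15, 9.62 and 9.44. Control replicate 2 was the highest array and F2 replicate 2 the lowest, 4.00-fold apart, and its SD over the arrays exceeded that of 98.5% of the genes tested. The F2 difference was −0.04 (95% interval −0.83 to 0.74), and it became −0.27 without F2 replicate 4 and 0.35 without F2 replicate 2. Without control replicate 2 and F2 replicate 2 it was 0.61. The F3 difference of −0.23 (95% interval −1.01 to 0.56) became 0.03 without control replicate 2 and −0.39 without control replicate 1.

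Aldh1a1 is the cytosolic enzyme that oxidises retinal to retinoic acid. Controls read 11.49, 12.12, 11.68 and 11.67, F2 arrays 11.59, 11.06, 11.59 and 11.80, and F3 arrays 11.63, 11.46, 11.38 and 11.21. In F3, 3 arrays were below every control, and replicate 1 was not. The F3 difference was −0.32 (95% interval −0.68 to 0.03), or 1.25-fold lower, and −0.19 without control replicate 2. With the array set as a block it was −0.40, and within the higher and lower sets −0.41 and −0.38. In the lower set F3 is the single array replicate 4, its lowest. The controls of the higher set are replicates 2 and 4, and control replicate 2 was the highest of all 12 arrays. The F2 difference of −0.23 (95% interval −0.59 to 0.12) ran from −0.33 to −0.08 with 1 array left out, the last without F2 replicate 2.

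Aldh1a7, the rodent relative of Aldh1a1, is a weaker retinal oxidiser. Controls read 10.04, 10.76, 9.99 and 10.39, F2 arrays 10.36, 9.74, 10.15 and 10.39, and F3 arrays 10.32, 10.14, 10.17 and 9.81. All 3 groups overlapped, with differences of −0.14 (95% interval −0.54 to 0.27) in F2 and −0.18 (95% interval −0.58 to 0.22) in F3. Without control replicate 2 they were 0.02 and −0.03, and without control replicate 3 they were −0.24 and −0.28.

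Aldh1b1 encodes a mitochondrial enzyme for acetaldehyde and other short aldehydes. Controls read 7.19, 6.33, 6.99 and 7.12, F2 arrays 6.70, 7.04, 6.89 and 6.49, and F3 arrays 6.76, 6.63, 6.79 and 6.75. Here control replicate 2 was the lowest of all 12 arrays, where it was the highest for Aldh3a2, Aldh1a1 and Aldh1a7. The differences of −0.13 (95% interval −0.49 to 0.24) in F2 and −0.17 (95% interval −0.54 to 0.19) in F3 moved to −0.32 and −0.37 without it. They were −0.035 and −0.08 without control replicate 1, −0.06 and −0.10 without control replicate 4, and the F2 value was −0.21 without F2 replicate 2 and −0.033 without F2 replicate 4. The lowest Aldh1b1 value was above 89.4% of the negative control probe sets, so its level was near background too. In the higher set alone, which holds control replicate 2, the F3 difference was 0.0032. In the lower set, where F3 is the single array replicate 4, it was −0.34.

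**Figure D3:**
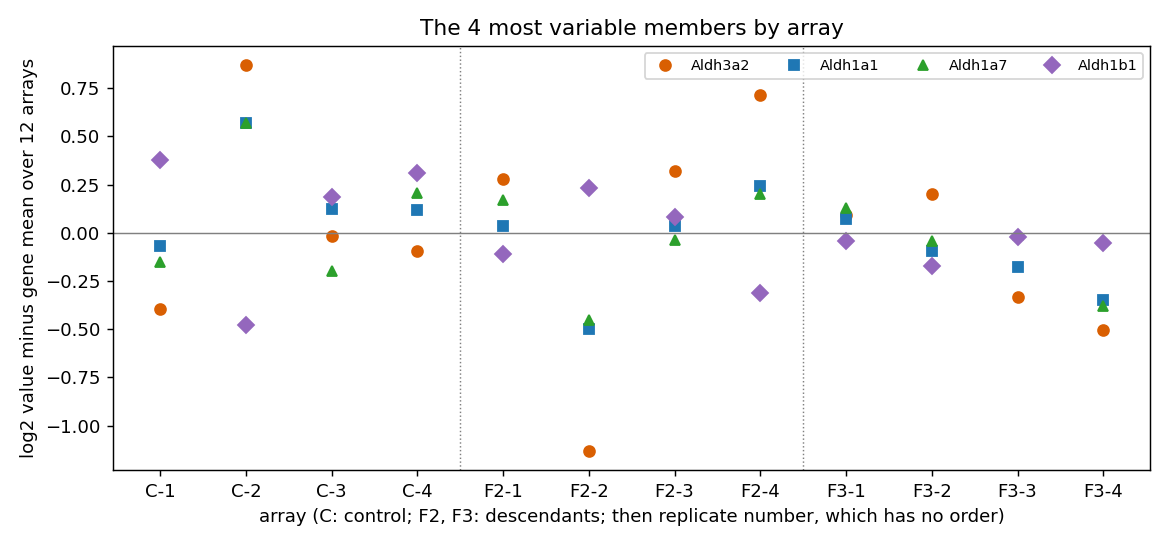
Log2 values of Aldh3a2, Aldh1a1, Aldh1a7 and Aldh1b1 minus the mean of each gene over the 12 arrays (vertical axis), by array, with dotted lines between the groups. In control replicate 2 Aldh3a2, Aldh1a1 and Aldh1a7 are at their highest and Aldh1b1 at its lowest, and in F2 replicate 2 the first 3 are at their lowest.

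Control replicate 2 was the highest and F2 replicate 2 the lowest array for 4 of the 10 members (Adh1, Aldh1a1, Aldh1a7 and Aldh3a2), a combination seen in 2.61% of the genes tested. Cell markers differed on these arrays too. The pericentral list had its highest mean level in control replicate 2 (9.10) and its lowest in F2 replicate 2 (8.73), and the periportal list, 7 of 10 measured, its lowest in control replicate 2 (10.55). Kupffer cell and lymphocyte markers were highest in F2 replicate 2, at 8.25 and 5.18. Their part in the Adh1, Aldh1a1, Aldh1a7 and Aldh3a2 values was not tested. Correlations between members over the 12 arrays, given as a description, ran from −0.71 to 0.90 over 45 pairs, with a median of 0.08. The pair Aldh1a1 and Aldh3a2 had r = 0.90 (Spearman rho 0.74), Aldh1a1 and Aldh1a7 r = 0.89 (rho 0.73), and Aldh1a7 and Aldh3a2 r = 0.84 (rho 0.71). Without the 2 arrays named above, which are also the farthest from the median of the first gene in each pair, these were 0.75, 0.71 and 0.65. Within the 7 arrays of the higher set they were 0.84, 0.97 and 0.73, and the lower set of 5 is too small for a value. Aldh1b1 and Aldh3a2 were opposed (r = −0.71, rho −0.69), with −0.58 over the 10 arrays. Adh1 with Aldh1a1 went from 0.73 to −0.25 when those arrays were left out, so that relation rests on them. The points share the labelling protocol and the normalization of the arrays.

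**Figure D4:**
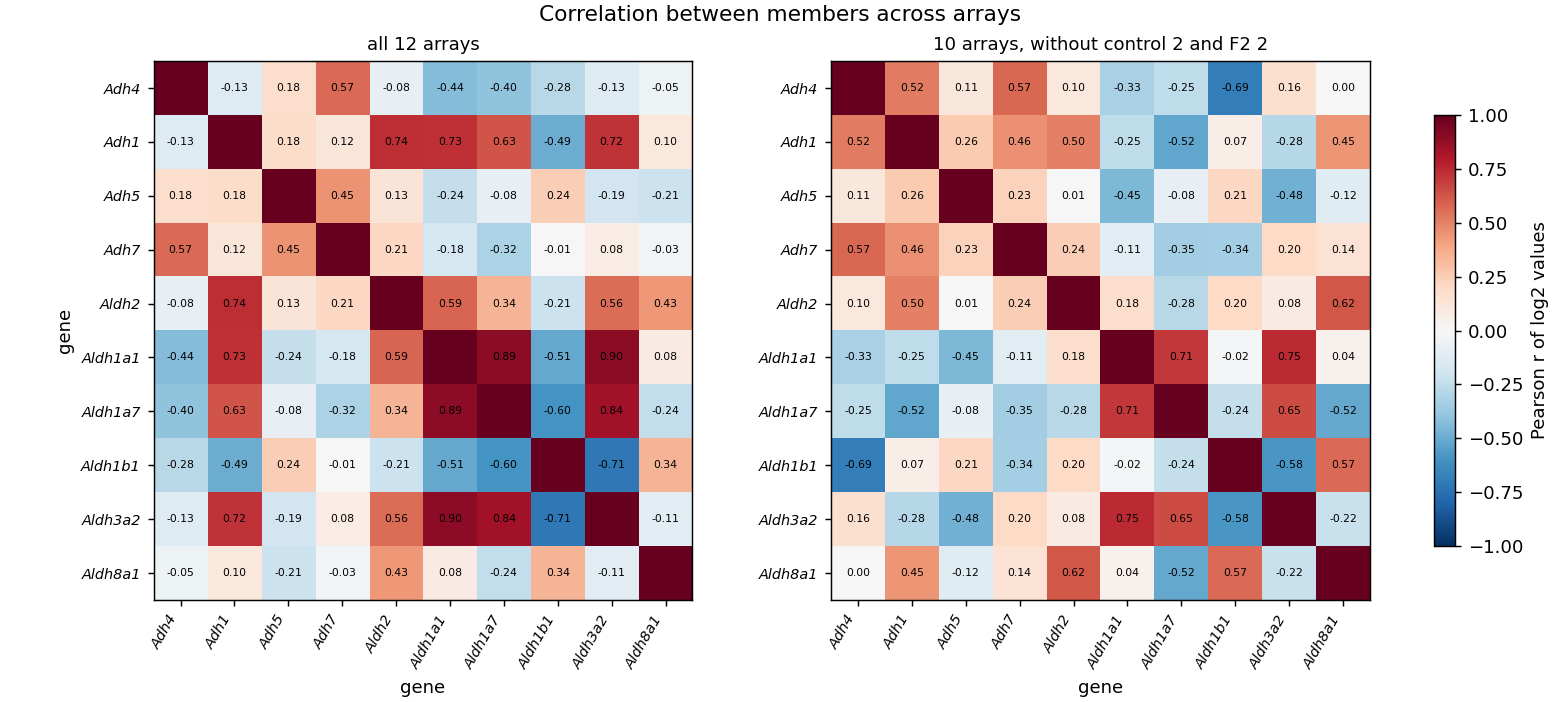
Pearson r of log2 values between the 10 genes on both axes, over all 12 arrays (left) and over 10 arrays without control replicate 2 and F2 replicate 2 (right), from −1 (blue) to 1 (red). Aldh1a1, Aldh1a7 and Aldh3a2 stay correlated at 0.65 to 0.75 on the right, while Adh1 goes to −0.25, −0.52 and −0.28 with them.

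The genes most like each member over the 12 arrays were sought among 9638 tested genes outside both families. For Adh4 they were 3 cytochrome P450 genes of the Cyp2c subfamily, Cyp2c69 (r = 0.85, rho 0.85), Cyp2c40 (r = 0.81, rho 0.85) and Cyp2c67 (r = 0.81, rho 0.78), close relatives whose probe sets may not be separate measurements. For Aldh3a2 they were Acaa1b (r = 0.99) and Acaa1a (r = 0.98), the thiolases of peroxisomal fatty acid oxidation, and Ugt3a1 (r = 0.96), and the first 2 held at 0.97 and 0.98 over the 10 arrays. Acaa1a and Acaa1b are close relatives too, so their probe sets may not be separate measurements. For Aldh1a1 they were Pgrmc1, a haem-binding membrane protein gene (r = 0.96), the transporter gene Abcc3 (r = 0.96) and Hsd17b11, a lipid droplet dehydrogenase gene (r = 0.95). For Aldh1a7 they were Dlst (r = 0.97) and Sdha (r = 0.96) of the citric acid cycle and the mitochondrial protease gene Lonp1 (r = 0.95). For Adh1 they were the glutathione transferase gene Gsta3 (r = 0.96), Fmo1 (r = 0.91) and Ces1b (r = 0.91), which had 0.75, 0.46 and 0.46 without the 2 extreme arrays. For Aldh8a1 the first was Uqcrc1 of respiratory complex III (r = 0.93), for Adh5 the urea cycle gene Cps1 (r = 0.84), for Aldh2 the paraoxonase gene Pon1 (r = 0.82), for Adh7 the oxidase gene Nox4 (r = 0.89) and for Aldh1b1 Pgap2 (r = 0.96). Each ranks among the top 3 of 9638 values, and none was tested.

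Over the 10 members, limma (all 12 arrays, Benjamini-Hochberg over 18725 genes) called 0 in F2 against control, 0 in F3 against control and 0 in F3 against F2, where 0.0% of all genes were called in each. The adjusted p was 0.9999 for every member in F2, 0.9998 in F3 and 0.9999 between them. Members lay below control in 8 of 10 cases in F2 (median −0.06) and 7 of 10 in F3 (median −0.08), beside medians of −0.01 over all genes tested in both, of which 43.3% lay above 0 in F2 and 45.3% in F3. Without control replicate 2 and F2 replicate 2 the members' medians were 0.01 in F2 and −0.0020 in F3. Leaving aside Adh4, whose difference chose it, 0 members had an unadjusted p under 0.05 in F2, in F3 or between F3 and F2, where 0.919%, 2.93% and 2.37% of all genes had. Groups did not overlap for 1 member in each comparison, Adh4 above control in F2 and F3 and Adh5 higher in F3 than F2. In either direction this held for 0.705%, 1.63% and 2.46% of all genes tested. Adh4 was selected on this pattern, so the shares in F2 and F3 against control are no test of it. No other member separated from control.

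The other 18 genes of both families were looked at as a list, of which 17 had a named probe set and 14 passed the filter. None of the 14 was called by limma in any of the 3 comparisons, and 0 reached an unadjusted p under 0.05. Of the 14, 11 lay below control in F2 (median −0.03) and in F3 (median −0.06). Over all genes tested, 43.3% lay above 0 in F2 and 45.3% in F3. Without control replicate 2 and F2 replicate 2 the medians were −0.08 and −0.07. Aldh5a1, which ends the breakdown of the transmitter GABA, was at −0.15 (SE 0.14) in F2 and −0.18 (SE 0.14) in F3, and at −0.05 and −0.07 without control replicate 2. Its F2 value was −0.02 without F2 replicate 2. Aldh4a1 of proline breakdown was at −0.11 (SE 0.10) and −0.14 (SE 0.10), and the F2 value was 0.01 without F2 replicate 2. Aldh1l1, which oxidises formyl-tetrahydrofolate, was at −0.15 (SE 0.14) in F2, or −0.28 without control replicate 2, and at 0.11 (SE 0.14) in F3 against F2. Aldh9a1, which makes the carnitine precursor, was at −0.12 (SE 0.083) in F3, or −0.07 without control replicate 2. Between F3 and F2, Adhfe1, which oxidises hydroxybutyrate, was at −0.09 (SE 0.11) and Aldh3b2 at −0.08 (SE 0.099). Without F2 replicate 2 these were −0.14 and 0.01. Aldh6a1 of valine breakdown, from 10.39 to 10.95, and Aldh7a1 of lysine breakdown, from 9.67 to 10.11, had their lowest values in F2 replicate 2, and Aldh1l1 ran from 10.28 to 11.02.

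Genes that share substrates with the members were no clearer. Of 8 genes of ethanol, acetaldehyde and acetate metabolism outside both families, 0 were called, 6 lay below control in F2 (median −0.08) and 5 in F3 (median −0.05). Over all genes tested, 43.3% lay above 0 in F2 and 45.3% in F3. Without control replicate 2 and F2 replicate 2 the medians were 0.08 and 0.02. Cyp2e1, the ethanol-inducible P450, ran from 12.79 to 13.00 over the 12 arrays, and Cat, the peroxisomal catalase that can oxidise ethanol, from 12.58 to 12.93. Acss2, which turns acetate into cytosolic acetyl-CoA, was at −0.61 (SE 0.29) in F2, −0.33 (SE 0.29) in F3 and 0.29 (SE 0.29) in F3 against F2. Control replicates 2 and 4 held its highest values, 8.67 and 8.28, against 7.90 at most elsewhere, and without control replicate 2 the differences from control were −0.36 and −0.07. Without F2 replicate 2 that between F3 and F2 was 0.16. Akr1a1, an aldehyde reductase with values from 9.65 to 9.91, was at −0.07 (SE 0.063) in F2 and −0.12 (SE 0.063) in F3, and its F2 value was −0.036 without F2 replicate 2. Cmbl, a hydrolase, was at −0.17 (SE 0.16) in F2 and −0.09 (SE 0.16) in F3, and Esd, which completes formaldehyde removal after Adh5, at 0.07 (SE 0.12) in F3 against F2. Cmbl was at −0.0050 in F2 without F2 replicate 2 and at 0.0045 in F3 without control replicate 2, and Esd at −0.01 without F2 replicate 2.

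In retinoid metabolism and signalling, 31 of 34 genes were measured and 29 tested, and 0 were called in any comparison. In F2, 21 of 29 lay below control (median −0.04) and in F3 19 of 29 (median −0.04). Over all genes tested, 43.3% lay above 0 in F2 and 45.3% in F3. Without control replicate 2 and F2 replicate 2 the medians were −0.08 and −0.04. Ttr and Rbp4, the blood carriers of retinol, ran from 12.30 to 12.50 and from 11.87 to 12.22, and the retinol dehydrogenase gene Rdh7 from 11.72 to 11.94. Rxra, the partner receptor of the retinoic acid receptors, read 9.76, 9.73, 9.74 and 9.91 in controls, 9.90, 9.99, 9.84 and 9.90 in F2, and 9.77, 9.70, 9.58 and 9.58 in F3. The F3 arrays were all below the F2 arrays, by −0.25 (SE 0.066) on average, with 0.838% of the genes tested wholly lower in F3, and control overlapped both. Without F2 replicate 2 that difference was −0.22. Lrat, which esterifies retinol for storage in stellate cells, was higher by 0.39 (SE 0.15) in F3 than in F2, with overlapping groups. Without F2 replicate 2, its lowest array at 6.96, that was 0.28. The retinol dehydrogenase gene Dhrs9 was higher by 0.47 (SE 0.18) in F3 than in F2, and by 0.55 without F2 replicate 2. Its F3 replicates 3 and 4 read 5.41 and 5.35 and the other arrays at most 4.86. Dhrs9 averaged 4.69 in controls and 4.55 in F2, near the filter of 4.55, so it was measured near background. Between F3 and F2, 3 of 29 genes had an unadjusted p under 0.05 (Rxra, Lrat and Dhrs9), beside 2.37% of all genes tested. None of the 3 was called (limma, adjusted p = 0.9999). Against control in F3, Rxra was at −0.12 (SE 0.066), Lrat at 0.25 (SE 0.15) and Dhrs9 at 0.33 (SE 0.18), and Rxra in F2 was at 0.12 (SE 0.066). Stellate cell and fibroblast markers, a list that holds Lrat, had mean levels of 6.65 to 6.93 in controls, 6.69 to 6.89 in F2 and 6.79 to 6.94 in F3. Of the 10 markers, 9 were above 0 in F3 against F2 (median 0.10), and their part in the Lrat value was not tested. Rarb, a retinoic acid receptor gene, was lower in all 4 F2 arrays than in all controls, at −0.13 (SE 0.063), where 0.401% of the genes tested were wholly lower. The gap was narrow, with the highest F2 array at 5.86 and the lowest control at 5.89. The F3 arrays of Rarb read 5.95, 5.97, 5.98 and 5.76. Bco2, a carotenoid cleavage enzyme gene, was at −0.20 (SE 0.12) in F2 and −0.07 without F2 replicate 2.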

How the data were processed

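The deposited file holds log2 expression values per probe set, 1 column for each of 12 arrays. The authors made these log2 values with software that the submitters' processing notes name as Affymetrix Expression Console. How background, normalization and summarization were handled, and the genome build, is not given in the sources used here. Total RNA from Trizol extraction, 100 ng per array, was labelled with biotin, per the labels' protocols. The range of the values, 0.73 to 13.64, set the log2 reading of the scale.

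Of 72688 probe sets, 30604 had 1 gene symbol and 2146 several. Symbols were updated through Entrez identifiers to RefSeq (GRCm38.p6, 22818 matched). Each gene took the probe set with the highest mean over the 12 arrays, and genes with a mean above 4.55, the median of all probe sets, were tested. The model (lmFit and eBayes of limma 3.58.1, R 4.3.3) took in the 3 groups at once, with Benjamini-Hochberg adjustment and a threshold of 0.05. The fit was tested on simulated data. The simulated noise was independent between genes and between arrays, so it does not carry the deviations that real arrays share. The number of arrays limits the precision.

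Members and gene lists were chosen with earlier results of these data known. The text names all members, from each of 3 pathway lists the 3 lowest p-values per comparison and the highest levels, and the 3 genes of highest Pearson r for a member, among genes with an SD of at least 0.1 and no predicted or RIKEN name. Outside this rule, Obp2a, Treh and Wfdc12 were named after their values were seen. Markers without a named probe set were not used.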

Additional observations from a re-analysis of the deposited data

Results flagged for a closer look

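Of 30 groups of 4 values (10 genes in 3 groups), 2 had an array far from the other 3 relative to the range of the group, where chance alone marks about 1 group in 20. Adh1 in F2 replicate 2 read 12.32, against 12.58 to 12.60 in the other F2 arrays. Adh5 in F3 replicate 1 read 8.19, against 8.09 to 8.10 in the other F3 arrays.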

How the results depend on the processing

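The count of genes called stayed at 0 in all 3 comparisons under quantile normalization, median centring, no filter, a stricter filter, the mean over probe sets, trend and robust eBayes, array weights, only the 2 groups compared, an adjusted p under 0.10, the array set as a block, the higher set alone, control replicate 2 and F2 replicate 2 both left out, and each array left out in turn (0 to 0). With the replicate number as a block, the replicate block, the count of genes called was 0 as well. At an unadjusted p under 0.05 limma had 172, 548 and 443 genes in F2 against control, F3 against control and F3 against F2. Those counts were 1358, 1388 and 671 without control replicate 2 and F2 replicate 2, 966, 970 and 1255 with array weights, and 140, 409 and 341 with the replicate block. Same-numbered arrays did not deviate together (correlations over 0.1 in 3 of 12 pairs, from −0.51 to 0.32), so the numbers are not taken to pair them. In the lower set alone limma called 2 genes in F3 against control (Obp2a and Treh) and 3 in F3 against F2 (these and Wfdc12). F3 is there the single array replicate 4, assumed to vary like the others, where Obp2a read 10.65 against at most 6.41 elsewhere. Of the recomputed member differences, 440 departed from the reported value by over 0.0001, and 34 of these changed sign. Over the settings 15 of the 30 differences kept their sign throughout. Those of Adh4 against control ran from 0.23 to 0.29 in F2 and from 0.26 to 0.55 in F3. The value of 0.55 is that of the lower set, with the single F3 array. Adh4 was selected on its higher values in descendants, and all 8 lay above all 4 controls. Leaving out arrays therefore cannot turn its sign against control, so these ranges are no test of it.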
